A study of Mus musculus with 20 samples.

Results

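The genes described here make and use glutathione, or belong to the peroxiredoxin, thioredoxin, selenoprotein and metallothionein systems, as measured in the prostate of 5 inbred mouse strains. They were chosen by name, with earlier results of these data known. Array elements whose single gene symbol was that of a glutathione transferase, glutathione peroxidase, glutathione synthesis enzyme, peroxiredoxin, superoxide dismutase, thioredoxin, glutaredoxin, methionine sulfoxide reductase, selenoprotein or metallothionein were taken, with at most 3 of 20 values missing. Of 62 elements with such a name, 60 met the limit, and they stood for 42 genes among the 11159 elements and 5820 named genes tested. An element of Gstm1 with 7 missing values and an element of Prdx4 with 13 were left out, whereas the 60 elements that remained had no missing value. Several elements, 32 in all, stood for each of 14 genes, and elements of 1 gene may be repeated spots of 1 clone.

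Prostates came from male mice aged 8 to 9 weeks of the strains C57BL/6J, BALB/c, DBA/2, FVB/NJ and 129X1/SvJ, with no treatment and no engineered allele named in the labels. Each of 4 samples per strain pooled RNA of the dorsal, lateral, ventral and anterior lobes of 3 mice, so that 60 mice were used in all and differences between single mice or lobes could not be seen. BALB/c and DBA/2 mice came from 1 supplier and the other strains from another, so that strain and supplier cannot be told apart between these groups. Every pool was amplified and compared on a cDNA array with a common reference made from all strains, the pool being labelled Cy3 on 2 arrays of a strain and Cy5 on the other 2. Values are log2 ratios of pool over reference. A value of 1 is a doubling over the reference, and levels of different genes cannot be compared.

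Glutathione is a small thiol peptide that cells use to neutralize peroxides and reactive compounds. Glutathione transferases couple it to electrophiles, glutathione peroxidases and peroxiredoxins reduce peroxides, and thioredoxins and glutaredoxins return oxidized protein thiols to the reduced state. Selenoproteins carry selenocysteine, often at a redox-active site, and metallothioneins bind zinc, copper and other metals through their many cysteines. Many genes of these systems are induced through Nrf2, the product of Nfe2l2, which binds antioxidant response elements near its target genes. The prostate secretes a fluid rich in zinc and citrate, and the glutathione transferase GSTP1 is well known there because its gene is silenced in most human prostate cancers.

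The bases before the starts of Mgst1 and Gsto1 are shown because their differences among the strains exceeded those of all other members. The sequences are those of RefSeq on the reference assembly GRCm38.p6, 250 bases before the annotated start, on the plus strand, and alleles of the other strains were not read. Mgst1 was taken at chr6:138140277-138140526 and Gsto1 at chr19:47854723-47854972.
Mgst1: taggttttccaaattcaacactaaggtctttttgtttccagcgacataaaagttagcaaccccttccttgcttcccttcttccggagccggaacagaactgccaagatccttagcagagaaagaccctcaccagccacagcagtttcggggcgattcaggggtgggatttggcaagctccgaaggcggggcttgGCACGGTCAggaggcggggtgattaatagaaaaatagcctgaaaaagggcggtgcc
Gsto1: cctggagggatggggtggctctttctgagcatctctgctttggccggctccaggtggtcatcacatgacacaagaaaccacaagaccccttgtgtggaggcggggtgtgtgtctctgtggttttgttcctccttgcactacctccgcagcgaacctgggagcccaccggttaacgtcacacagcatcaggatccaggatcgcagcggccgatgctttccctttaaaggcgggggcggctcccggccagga
Capitals mark a match to the core of the antioxidant response element, TGACNNNGC, searched on both strands. The match in Mgst1 lies on the opposite strand and begins 56 bases before the start. A second annotated start of Mgst1, with its upstream bases at chr6:138141337-138141586, had no match, and neither had Gsto1. Promoters were listed for 40 of the 42 genes. Of these 47 promoters, 5 held the core (10.6%), those of Mgst1, Mt2, Gclm, Prdx1 and Sod1, beside 3338 of 32851 promoters of all genes (10.2%).

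The arrays held 10998 to 11251 values each, with medians from -0.01 to 0.02, and the closest pair of arrays correlated at 0.702. The spread between pools was widest in 129X1/SvJ, with a median SD over all elements of 0.30 beside 0.15 to 0.18 in the other strains, and 0.25 over the members. Pool 4 of 129X1/SvJ stood apart, with the lowest estimated array weight of the 20 (0.156), and calls over all elements rose from 1258 to 1747 without it. Of the members, 18 elements were called over the strains without this pool, beside 16 with it.

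Of the 60 elements, 16 differed among the 5 strains at an adjusted p of at most 0.1 in limma's moderated F test. This was 26.7% of the elements, beside 11.3% of all elements tested, and the 16 elements stood for 13 genes. The members were chosen with earlier results of these data known. Setting their shares beside those of all elements, here and below, is therefore not a test of the family. The median distance from the lowest to the highest strain mean was 0.41 over the 60 elements and 0.32 over all elements tested. By at least 1 on the log2 scale differed 6 called elements, the 3 elements of Mgst1 and single elements of Gsto1, Gpx8 and Selenon. In whole tissue a lower share of the cells that make a transcript and less of it in each cell cannot be told apart. The P values set differences among strain means against the spread between pools within strains, estimated for all strains together. The pools were made from separate mice.

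**Figure D1:**
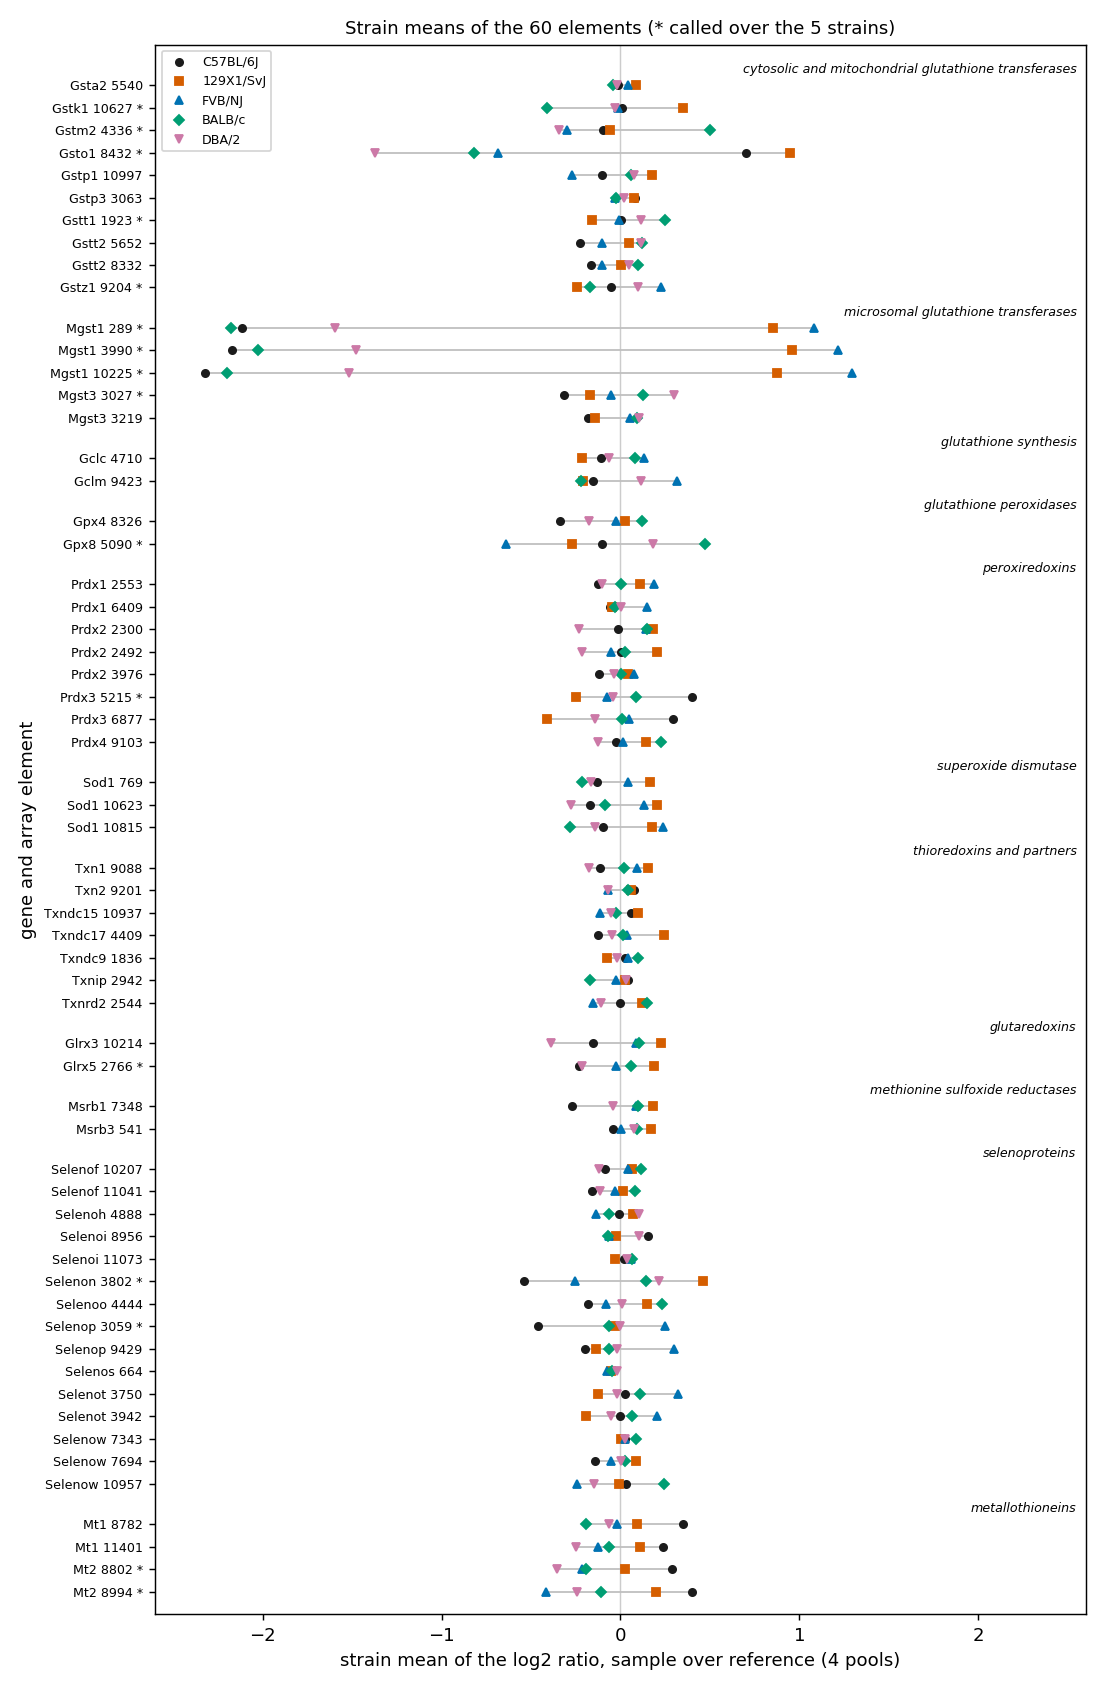
Strain means of the log2 ratio of pool over reference (4 pools each) for the 60 elements, ordered by role, with a line from the lowest to the highest strain and a star at the 16 called elements. The 3 elements of Mgst1 spanned 3.26 to 3.62 and Gsto1 spanned 2.32, whereas elements that were not called spanned at most 0.71.

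The calls are given by role, with no test between roles. Of 10 elements of cytosolic and mitochondrial glutathione transferases 5 were called, and of 5 elements of microsomal transferases 4, of which 3 stand for Mgst1. Of 4 metallothionein elements 2 were called, both of Mt2. Of 15 selenoprotein elements 2 were called, of 8 peroxiredoxin elements 1 (shares near the 11.3% of all elements), and of 2 elements each of the glutathione peroxidases and glutaredoxins 1. None was called of 7 elements of thioredoxins and their partners, 3 of superoxide dismutase, 2 of glutathione synthesis and 2 of methionine sulfoxide reductases. In these last 4 groups the adjusted p was 0.188 or more by the limma F test, with 2 elements, those of Gclm and Txn1, at an unadjusted p under 0.05.

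Microsomal transferases showed the widest range. Mgst1 encodes a membrane-bound glutathione transferase of the endoplasmic reticulum and outer mitochondrial membrane that also reduces lipid peroxides. Its transcript was high in 129X1/SvJ and FVB/NJ and low in C57BL/6J, BALB/c and DBA/2. On element 289 of Mgst1 the 4 pools of FVB/NJ read 0.96, 1.36, 1.15 and 0.86, and those of 129X1/SvJ read 0.71, 0.60, 1.16 and 0.94. The pools of DBA/2 read -1.71, -1.51, -1.68 and -1.50, those of BALB/c -2.21, -2.23, -1.96 and -2.30, and those of C57BL/6J -1.39, -2.17, -2.40 and -2.50. The 8 pools of the high strains lay above the 12 others with no overlap. Among the low strains C57BL/6J pool 1 reached above the DBA/2 pools, whereas the BALB/c pools lay below them. FVB/NJ exceeded BALB/c by 3.26, or 9.57-fold (adjusted p = 7.22e-11, limma F test over the strains).

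On Mgst1 element 3990 the pools of FVB/NJ read 1.21, 1.33, 1.28 and 1.04, those of 129X1/SvJ 0.93, 1.04, 0.85 and 1.00, and those of DBA/2 -1.69, -1.40, -1.43 and -1.39. BALB/c read -2.23, -2.12, -1.91 and -1.84 on this element, and C57BL/6J read -2.24, -2.07, -2.15 and -2.22. Here the 4 DBA/2 pools lay between the high strains and the other low strains with no overlap, whereas BALB/c and C57BL/6J overlapped. FVB/NJ exceeded C57BL/6J by 3.39, or 10.5-fold (adjusted p = 4.86e-15, limma F test).

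On Mgst1 element 10225 the pools of FVB/NJ read 1.45, 1.39, 1.19 and 1.14, those of 129X1/SvJ 0.93, 0.52, 0.84 and 1.22, and those of DBA/2 -1.60, -1.53, -1.67 and -1.26. BALB/c read -2.19, -2.31, -2.26 and -2.03, and C57BL/6J read -2.25, -2.04, -2.43 and -2.59. The place of DBA/2 above BALB/c and C57BL/6J with no overlap was as on element 3990. The difference was 3.62 between FVB/NJ and C57BL/6J, or 12.3-fold (adjusted p = 3.95e-13, limma F test). Over the 20 arrays the 3 elements of Mgst1 correlated with each other at 0.98 to 0.99 (Pearson's r), whereas their deviations from the strain means correlated at 0.06 to 0.38, so the shared pattern was that of the strains. The difference was alike in both dyes, at 3.17 among arrays with the pool in Cy3 and 3.35 with the pool in Cy5 on element 289.

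**Figure D2:**
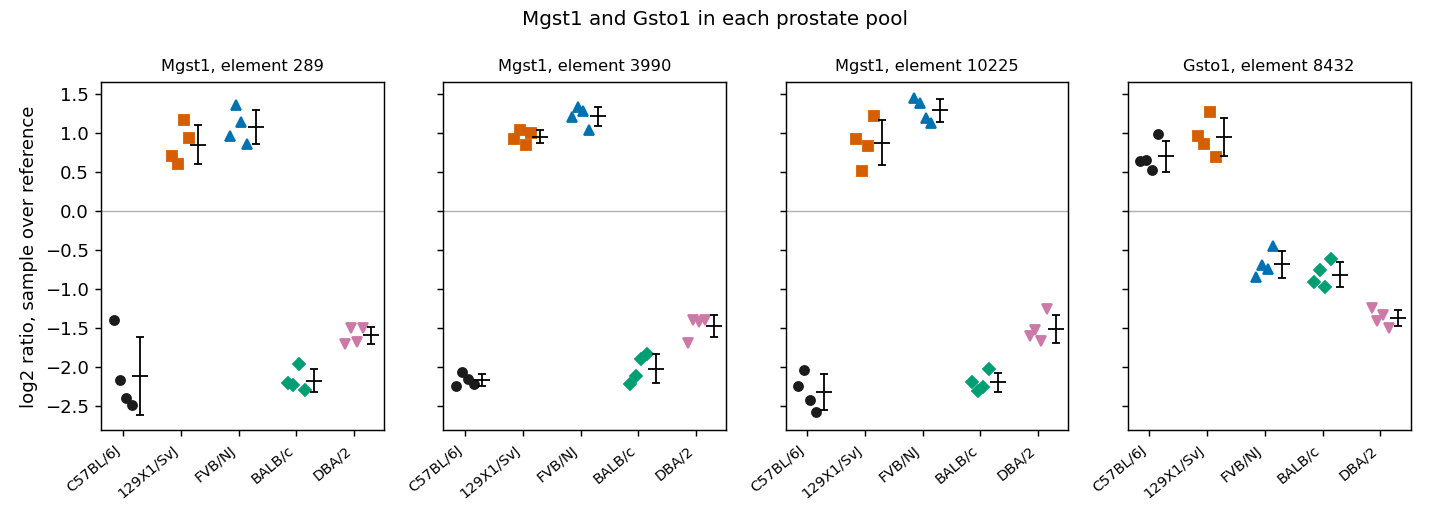
Log2 ratio of pool over reference for the 3 elements of Mgst1 and for Gsto1 in each of 20 pools, by strain, with the mean and SD of 4 pools beside them. For Mgst1 the pools of 129X1/SvJ and FVB/NJ lie above 0 and all others below, whereas for Gsto1 the pools above 0 are those of C57BL/6J and 129X1/SvJ.

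Mgst3, a microsomal relative that also acts on leukotrienes, differed far less. On element 3027 its mean was highest in DBA/2 at 0.30 ± 0.08 (SD, n = 4) and lowest in C57BL/6J at -0.31 ± 0.18, with BALB/c at 0.13, FVB/NJ at -0.05 and 129X1/SvJ at -0.17. The difference of 0.61 was called (adjusted p = 0.0216, limma F test). A second element of Mgst3, 3219, had the same strains at its ends but differed by 0.29 (adjusted p = 0.568), and with both elements averaged Mgst3 was no longer called (adjusted p = 0.134). The order of the strains for Mgst3 was unlike that of Mgst1, with FVB/NJ in the middle and DBA/2 on top.

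Among the other transferases Gsto1 led. It encodes an omega-class transferase that reduces dehydroascorbate and methylated arsenic compounds. Its pools read 0.97, 0.86, 1.28 and 0.70 in 129X1/SvJ and 0.64, 0.66, 0.53 and 0.98 in C57BL/6J. They read -0.84, -0.70, -0.75 and -0.45 in FVB/NJ, -0.91, -0.76, -0.98 and -0.62 in BALB/c. The DBA/2 pools read -1.25, -1.41, -1.33 and -1.50. The strains fell at 3 levels with no overlap of pools between them, 129X1/SvJ and C57BL/6J on top, FVB/NJ and BALB/c below the reference and DBA/2 lowest. From 129X1/SvJ to DBA/2 the difference was 2.32, or 5.01-fold (adjusted p = 4.07e-10, limma F test). It was 2.44 among Cy3 arrays and 2.21 among Cy5 arrays. Mgst1 and Gsto1 thus divided the strains differently, since 129X1/SvJ was high for both, C57BL/6J was high for Gsto1 alone and FVB/NJ for Mgst1 alone.

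Gstm2, a mu-class transferase, was high in BALB/c at 0.50 ± 0.12 (SD, n = 4), and its 4 pools there lay above all other pools. The other means ran from -0.34 in DBA/2 to -0.06 in 129X1/SvJ, and the difference of 0.85 was called (adjusted p = 0.00277, limma F test). Gstk1, the kappa-class enzyme of mitochondria and peroxisomes, ran from -0.41 ± 0.27 in BALB/c to 0.35 ± 0.37 in 129X1/SvJ (adjusted p = 0.0467), with pools that overlapped other strains. Without BALB/c pool 2 or without BALB/c pool 3 Gstk1 was not called (adjusted p = 0.106 and 0.126), and its difference was 0.44 in Cy3 and 1.08 in Cy5.

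Gstz1, a zeta-class enzyme that also isomerizes maleylacetoacetate in tyrosine breakdown, was highest in FVB/NJ at 0.23 ± 0.09 and lowest in 129X1/SvJ at -0.25 ± 0.05, a difference of 0.47 (adjusted p = 0.0113, limma F test). Gstt1, a theta-class enzyme, ran from -0.16 ± 0.06 in 129X1/SvJ to 0.25 ± 0.14 in BALB/c (adjusted p = 0.085). The call of Gstt1 held only without C57BL/6J pool 1 or 2, FVB/NJ pool 2 or BALB/c pool 2 and was lost without any other pool, with adjusted p from 0.056 to 0.19 over the 20 pools left out in turn. The elements of Gsta2, Gstp1, Gstp3 and Gstt2 were not called, with differences from 0.11 for Gstp3 to 0.45 for Gstp1. A cDNA element can also take up transcripts of close relatives, and Gstp1 with Gstp3, and the mu-class genes, may not be separate here.

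Glutathione synthesis depends on glutamate cysteine ligase, made of the catalytic subunit Gclc and the modifier Gclm. Gclm was highest in FVB/NJ at 0.31 ± 0.10 and lowest in BALB/c at -0.22 ± 0.10, a difference of 0.54 that was not called (adjusted p = 0.215, limma F test), and the SD in 129X1/SvJ was 0.58. In 129X1/SvJ pool 4 Gclm element 9423 read -1.06, and it was called without that pool (adjusted p = 0.00574) or without 129X1/SvJ pool 3 (adjusted p = 0.0949). Gclc differed by 0.34 (adjusted p = 0.552).

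Of the glutathione peroxidases, Gpx8, which resides in the endoplasmic reticulum, differed and Gpx4, which reduces lipid peroxides in membranes, was not called. The pools of Gpx8 read 0.48, 0.40, 0.48 and 0.52 in BALB/c, followed by 0.21, 0.14, 0.06 and 0.32 in DBA/2. They read -0.25, 0.07, -0.22 and -0.01 in C57BL/6J, -0.66, -0.45, -0.12 and 0.16 in 129X1/SvJ, and -0.62, -0.42, -0.93 and -0.60 in FVB/NJ. BALB/c lay above all other pools, and the 129X1/SvJ pools spread over most of the range of the other 3 strains. BALB/c exceeded FVB/NJ by 1.11, or 2.16-fold (adjusted p = 2.67e-04, limma F test), and the difference was 1.11 in Cy3 and 1.12 in Cy5. Gpx4 ran from -0.34 ± 0.16 in C57BL/6J to 0.12 ± 0.28 in BALB/c (adjusted p = 0.276).

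Some markers of the seminal vesicle, a gland that lies against the anterior prostate, also had their highest means in BALB/c. Of 8 measured of 10 such genes, 3 were called, Svs2, Svs5 and Pate4, each highest in BALB/c. The others were not called, and of these Svs4 and Sva were also highest in BALB/c, at 1.24 and 0.01 (adjusted p = 0.105 and 0.907, limma F test). Svs1 was highest in C57BL/6J at 0.39, Svs3b in 129X1/SvJ at 0.24 and Svs6 in 129X1/SvJ at -0.01, beside 0.02, -0.25 and -0.13 in BALB/c. The mean over the 8 genes ran from 0.32 to 1.04 in the BALB/c pools, from -2.41 to -1.96 in DBA/2, from -2.80 to 0.33 in C57BL/6J, from -2.54 to 0.18 in 129X1/SvJ and from -2.77 to -0.41 in FVB/NJ. Of 2 leukocyte markers measured, both called, Lyz2 was also highest in BALB/c at 0.59, whereas Cd52 was highest in DBA/2. DBA/2, the next strain for Gpx8, ran from -2.41 to -1.96 on the seminal vesicle list, inside the ranges of C57BL/6J, 129X1/SvJ and FVB/NJ. The part of seminal vesicle tissue or leukocytes in the levels of Gpx8, Gstm2 and Gstt1, in BALB/c or any other strain, was not tested.

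Peroxiredoxins reduce peroxides through a reactive cysteine, and 1 of their 8 elements was called. Prdx3, the mitochondrial member, ran on element 5215 from 0.40 ± 0.12 in C57BL/6J to -0.25 ± 0.33 in 129X1/SvJ, a difference of 0.65 (adjusted p = 0.0841, limma F test). This call held only without 129X1/SvJ pool 1 or 4, FVB/NJ pool 2, BALB/c pool 1 or 3 or DBA/2 pool 1 and was lost without any other pool, with adjusted p from 0.03 to 0.219 over the 20 pools. The second element of Prdx3, 6877, differed by 0.71 between the same strains and was not called (adjusted p = 0.212), and the values of both elements correlated at 0.26 over the 20 arrays. In 129X1/SvJ pool 4 element 6877 of Prdx3 read -1.34, and without that pool its difference was 0.40 and it was called (adjusted p = 0.0789). With both elements averaged, Prdx3 was called (adjusted p = 0.00865). Elements of Prdx1, Prdx2 and Prdx4 differed by 0.19 to 0.42. The nearest to the threshold was Prdx2 element 2300, which was lowest in DBA/2 at -0.23 ± 0.05 (adjusted p = 0.18).

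Sod1, the copper and zinc superoxide dismutase, differed by 0.38, 0.48 and 0.52 on its 3 elements, with adjusted p from 0.413 to 0.466. These elements correlated at 0.80 to 0.88 over the arrays, and in 129X1/SvJ their SD was 0.41 to 0.50. Pool 4 of that strain read 0.77, 0.86 and 0.90 on them. Without it the differences of Sod1 elements 769 and 10623 fell to 0.18 and 0.26, and without FVB/NJ pool 3 that of element 10815 fell to 0.32. The thioredoxin genes were the flattest group, with a median difference of 0.21. Txn1, the cytosolic thioredoxin, came nearest, from -0.18 ± 0.13 in DBA/2 to 0.15 ± 0.14 in 129X1/SvJ (adjusted p = 0.188, limma F test). With the dye as a term in the model Txn1 was called (adjusted p = 0.0909, limma F test). Txn2 and the reductase Txnrd2 of the mitochondria, Txndc9, Txndc15, Txndc17 and Txnip, whose product binds and inhibits thioredoxin, had adjusted p of 0.557 or more.

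Glrx5, a mitochondrial glutaredoxin of iron-sulfur cluster assembly, was called at the edge of the threshold, from -0.23 ± 0.12 in C57BL/6J to 0.19 ± 0.16 in 129X1/SvJ (adjusted p = 0.0989, limma F test). The call of Glrx5 held only without 129X1/SvJ pool 1 or 2, BALB/c pool 3 or DBA/2 pool 4 and was lost without any other pool, with adjusted p from 0.0399 to 0.177 over the 20 pools. Glrx3 differed more, by 0.61 from DBA/2 to 129X1/SvJ, but with an SD of up to 0.43 it was not called (adjusted p = 0.211). Msrb1 and Msrb3, which repair oxidized methionine in proteins, differed by 0.45 and 0.21 and were not called (adjusted p = 0.673 and 0.699).

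Among selenoproteins, Selenon, a protein of the endoplasmic reticulum whose human counterpart is mutated in a congenital myopathy, was called. Its pools read -0.52, -0.61, -0.43 and -0.61 in C57BL/6J and -0.32, -0.28, 0.01 and -0.42 in FVB/NJ. They read 0.17, 0.17, 0.24 and -0.02 in BALB/c, 0.03, 0.26, 0.41 and 0.17 in DBA/2, and 0.74, 0.66, 0.23 and 0.21 in 129X1/SvJ. C57BL/6J lay below all other pools, but its highest pool and the lowest FVB/NJ pool were closer than the SD of either strain, and the other 3 strains overlapped. 129X1/SvJ exceeded C57BL/6J by 1.00, or 2.00-fold (adjusted p = 1.43e-04, limma F test). The fat markers Fabp4 and Car3 were also highest in 129X1/SvJ, at 0.40 and 0.69, and read -0.49 and -0.81 in C57BL/6J. Of 6 fat markers measured 3 were called, these and Lpl, which was highest in BALB/c. The mean of the 6 ran from -0.04 to 0.44 in the 129X1/SvJ pools and from -0.48 to 0.01 in those of C57BL/6J. The part of fat in the difference of Selenon was not tested.

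Selenop, the secreted selenium carrier, was lowest in C57BL/6J at -0.46 ± 0.25 and highest in FVB/NJ at 0.25 ± 0.21 on element 3059 (adjusted p = 0.0679, limma F test). It lost the call without C57BL/6J pool 1 or 3 or without FVB/NJ pool 1, 3 or 4, with adjusted p of up to 0.221. Element 9429 of Selenop had the same strains at its ends, a difference of 0.50 and an adjusted p of 0.227, and with both averaged the adjusted p was 0.0447. The other 12 selenoprotein elements, those of Selenof, Selenoh, Selenoi, Selenoo, Selenos, Selenot and Selenow, differed by 0.06 to 0.49. The nearest of them to the threshold was Selenot element 3750, highest in FVB/NJ at 0.32 ± 0.26 (adjusted p = 0.227).

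The metallothionein Mt2 was highest in C57BL/6J on both of its elements. On element 8802 the means were 0.29 ± 0.12 in C57BL/6J, 0.03 ± 0.19 in 129X1/SvJ, -0.19 ± 0.19 in BALB/c, -0.22 ± 0.15 in FVB/NJ and -0.35 ± 0.28 in DBA/2 (adjusted p = 0.028, limma F test). On Mt2 element 8994 they ran from 0.40 ± 0.15 in C57BL/6J to -0.42 ± 0.17 in FVB/NJ, a difference of 0.82 (adjusted p = 1.68e-04), and the pools of C57BL/6J and 129X1/SvJ lay above all others. Mt1, which in the gene table follows Mt2 with 0 protein-coding genes between them, also had its highest means in C57BL/6J, 0.35 ± 0.19 and 0.24 ± 0.36. It differed by 0.54 and 0.49 and was not called (adjusted p = 0.456 and 0.744). Both Mt1 elements also differed by dye, by 0.38 and 0.63, whereas those of Mt2 did not pass the dye test, at 0.21 and -0.01.

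**Figure D3:**
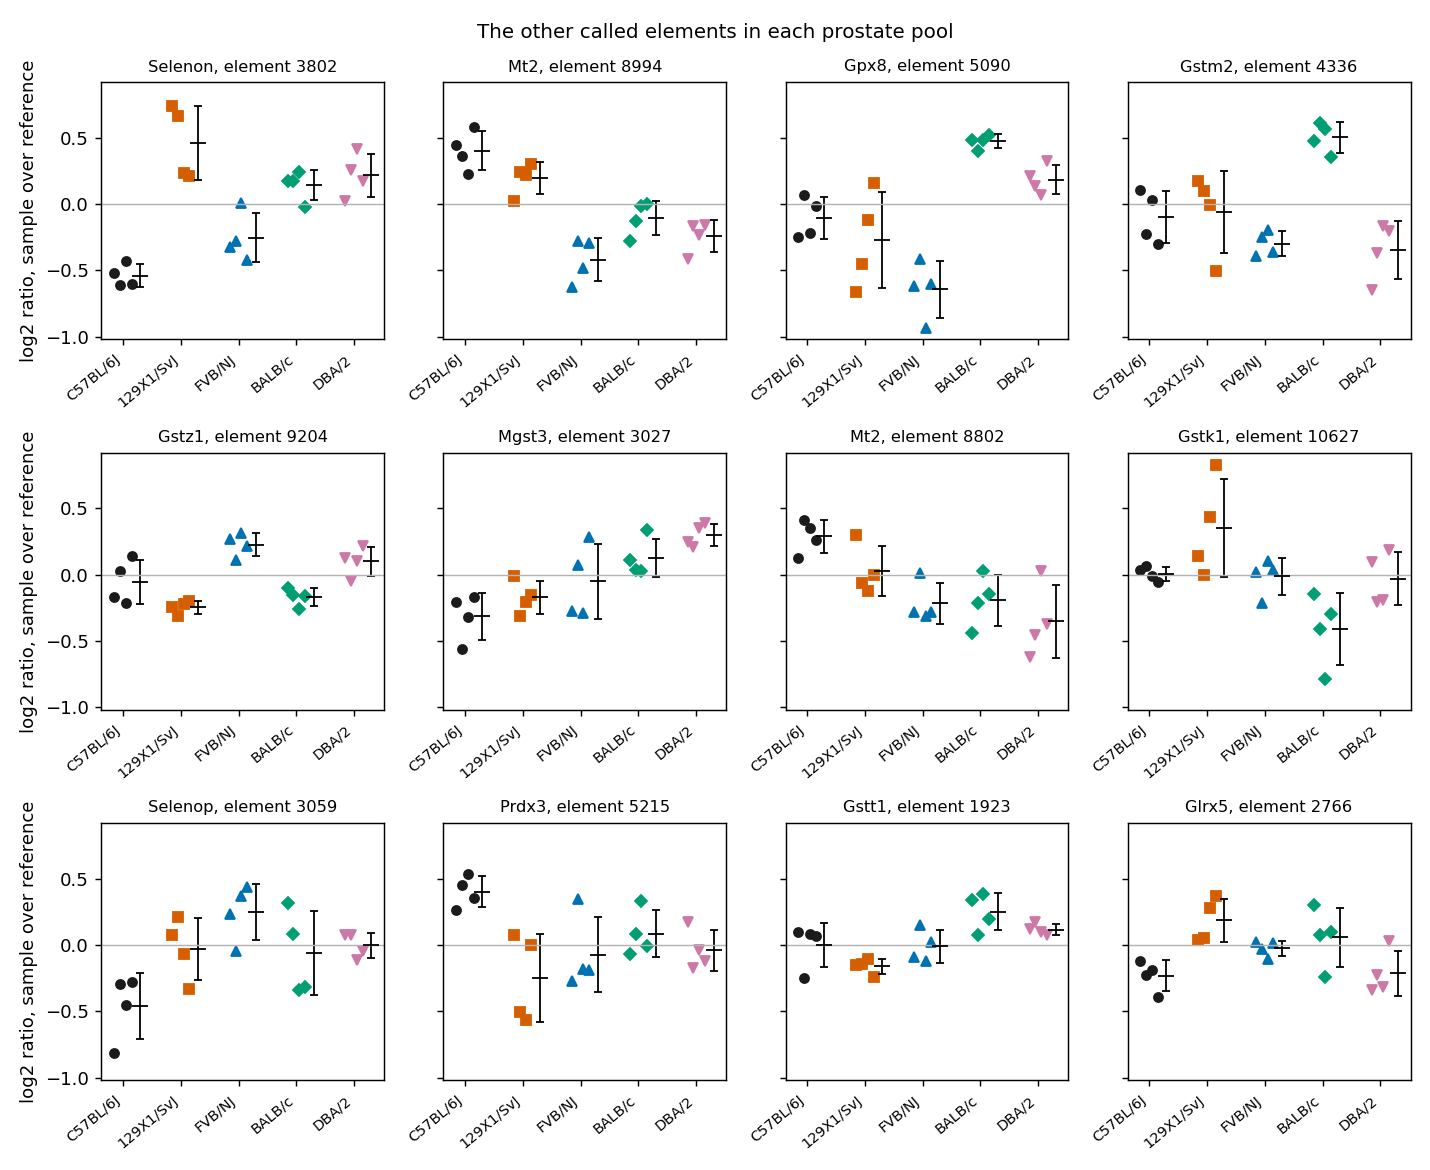
Log2 ratio of pool over reference in each of 20 pools for the 12 called elements other than those of Mgst1 and Gsto1, ordered by adjusted p, with the mean and SD of 4 pools per strain. Gstm2 and Gpx8 are highest in BALB/c, Selenon is lowest in C57BL/6J and Mt2 is highest in C57BL/6J, and the strains overlap in most other panels.

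Each strain was then set against the mean of the other 4, at an adjusted p under 0.05 over all elements (limma contrast). In C57BL/6J 4 of the 60 elements were higher (6.67%, beside 1.77% of all elements tested) and 5 lower (8.33%, beside 1.44%). The higher ones were Gsto1 by 1.18 ± 0.11 (SE), both of Mt2 by 0.55 ± 0.09 and 0.47 ± 0.11, and Prdx3 element 5215 by 0.47 ± 0.13. The lower ones were the 3 of Mgst1, Selenon by -0.68 ± 0.10 and Selenop element 3059 by -0.50 ± 0.13. In 129X1/SvJ 6 of 60 were higher (10%, beside 2.96% of all) and 1 lower (1.67%, beside 2.74%). Its higher elements were the 3 of Mgst1, Gsto1 by 1.49 ± 0.11, Selenon by 0.57 ± 0.10 and Gstk1 by 0.46 ± 0.13, and Gstz1 was lower at -0.27 ± 0.08.

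In FVB/NJ 4 of 60 elements were higher (6.67%, beside 1.22% of all) and 3 lower (5%, beside 1.34%). The 3 of Mgst1 were higher by 2.34 to 2.59, and Gstz1 by 0.32 ± 0.08. Gpx8 was lower at -0.71 ± 0.12, Gsto1 at -0.55 ± 0.11 and Mt2 element 8994 at -0.48 ± 0.09. In BALB/c Gstm2, by 0.70 ± 0.11, and Gpx8, by 0.68 ± 0.12, made the 2 higher elements (3.33%, beside 0.914% of all), and the 4 lower (6.67%, beside 1.12%) were those of Mgst1 and Gsto1. In DBA/2 the 4 elements of Mgst1 and Gsto1 were again lower (6.67%, beside 0.869% of all), with Gsto1 at -1.41 ± 0.11. Mgst3 element 3027 was the 1 higher (1.67%, beside 1.09% of all), by 0.40 ± 0.10. Mgst1 and Gsto1 passed the contrast in all 5 strains, and since each strain is part of the mean that the others are set against, these contrasts are not independent. The 3 elements of Mgst1 count toward the share of every strain, so a share of elements is not a share of genes.

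The dye of the pool moved other members. With the pool in Cy5 rather than Cy3, 15 of the 60 elements differed at an adjusted p under 0.05 (25%, beside 15.9% of all elements), 7 upward and 8 downward. Both elements of Selenof were higher in Cy5, by 0.58 and 0.50, and Mt1 element 11401 by 0.63, whereas Selenow element 10957 was lower by -0.54, Selenoo by -0.48 and Msrb1 by -0.44. None of the 15 was among the 16 elements called over the strains, and each strain held 2 pools of each dye. The strain test had no dye term, so a dye difference added to its spread and made a call less likely. With the dye as a term in the model 19 elements were called over the strains. Among them were Gpx4 and Gstt2 element 5652, which are of the 15 (adjusted p = 0.0849 and 0.093, limma F test with the dye term). Txn1, which is not of the 15, was also called (adjusted p = 0.0909, same test).

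**Figure D4:**
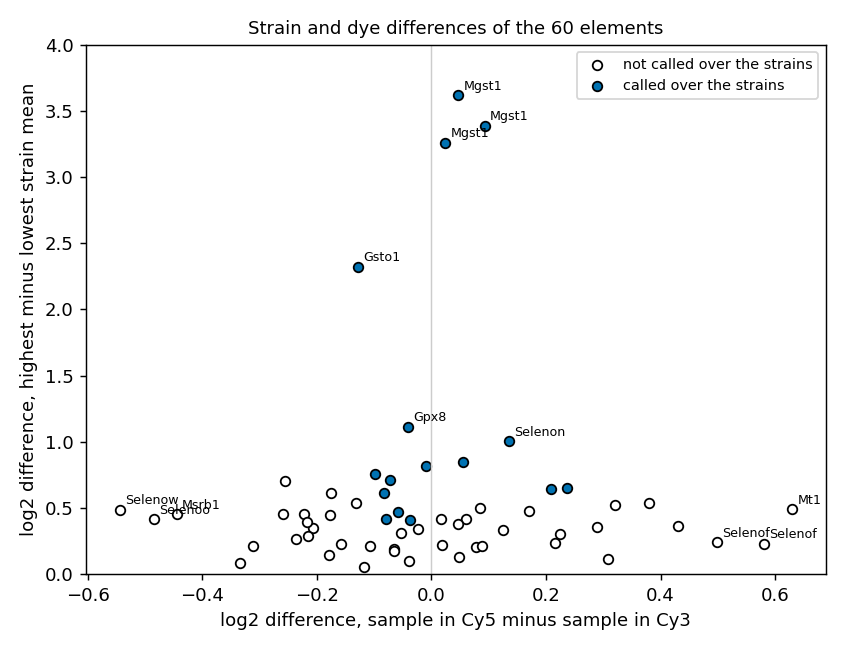
For each of the 60 elements, the distance from the lowest to the highest strain mean (vertical axis, log2) against the difference between pools labelled with Cy5 and Cy3 (horizontal axis, log2), filled where the element was called over the strains. The elements of Mgst1, Gsto1, Gpx8 and Selenon stand high and near 0 for the dye, whereas Selenof, Mt1 and Selenow stand far from 0 for the dye and low for the strains.

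Other genes of glutathione and oxidant defence were read beside the members. Of 89 such genes 34 were measured, with 1 element read for each, and 12 were called over the strains, again beside 11.3% of all elements. The list was chosen with earlier results of these data known, so setting its count beside that share is not a test of the pathway. Slc7a11, which brings in the cystine used for glutathione synthesis, was highest in DBA/2 at 0.99 ± 0.36 and lowest in C57BL/6J at -1.42 ± 0.16, or 5.29-fold (adjusted p = 5.67e-07, limma F test). Its pools read -1.43, -1.38, -1.24 and -1.62 in C57BL/6J, -2.21, -1.35, -0.77 and -1.21 in 129X1/SvJ, and 0.93, 0.95, 0.60 and 1.47 in DBA/2. Those of FVB/NJ read -0.04, 0.23, 0.33 and 0.22, and those of BALB/c 0.01, -0.26, -0.20 and 0.28. All pools of C57BL/6J and 129X1/SvJ lay below those of the other strains, the reverse of the division seen for Gsto1. Slc1a5, a carrier of glutamine, was highest in C57BL/6J at 0.52 ± 0.48 and lowest in 129X1/SvJ at -0.60 ± 0.34 (adjusted p = 0.00586).

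Cbs and Cth, which turn homocysteine into cysteine, were both called and had different orders. Cbs was highest in FVB/NJ at 0.50 ± 0.12 and lowest in BALB/c at -0.998 ± 0.24, a difference of 1.49 (adjusted p = 2.79e-07, limma F test). Cth was highest in C57BL/6J at 0.25 ± 0.11 and lowest in FVB/NJ at -0.16 ± 0.19 (adjusted p = 0.0452), and lost its call without C57BL/6J pool 1 (adjusted p = 0.104). Glo1, the glyoxalase that uses glutathione to clear methylglyoxal, was highest in DBA/2 at 0.50 ± 0.10, close to BALB/c at 0.48 ± 0.12, and lowest in C57BL/6J at -0.72 ± 0.05 (adjusted p = 5.32e-07). Esd, which completes the glutathione-dependent removal of formaldehyde, was lowest in 129X1/SvJ at -0.38 ± 0.07 (adjusted p = 0.00891).

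Abcc3 and Abcc4, exporters that carry conjugates out of the cell, were both highest in 129X1/SvJ, with differences of 0.43 and 0.83 (adjusted p = 0.0379 and 0.00808, limma F test). Idh1, a source of NADPH, was highest in FVB/NJ and lowest in BALB/c, by 0.63 (adjusted p = 1.80e-04). Pon1, an esterase of oxidized lipids, was highest in 129X1/SvJ at 0.72 with an SD of 0.79. Atox1, a copper chaperone, and Aifm2, a suppressor of lipid peroxidation, were called at adjusted p of 0.0728 and 0.0798. The call of Atox1 was lost without FVB/NJ pool 1, 2 or 3, any BALB/c pool or DBA/2 pool 3 (adjusted p up to 0.19). That of Aifm2 held only without 129X1/SvJ pool 1 or 2, FVB/NJ pool 1, BALB/c pool 3 or 4 or DBA/2 pool 1 or 4 (adjusted p up to 0.147 otherwise). Nfe2l2, which encodes Nrf2, differed by 0.45 and was not called (adjusted p = 0.214), but was called without 129X1/SvJ pool 3 (adjusted p = 0.0856).

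**Figure D5:**
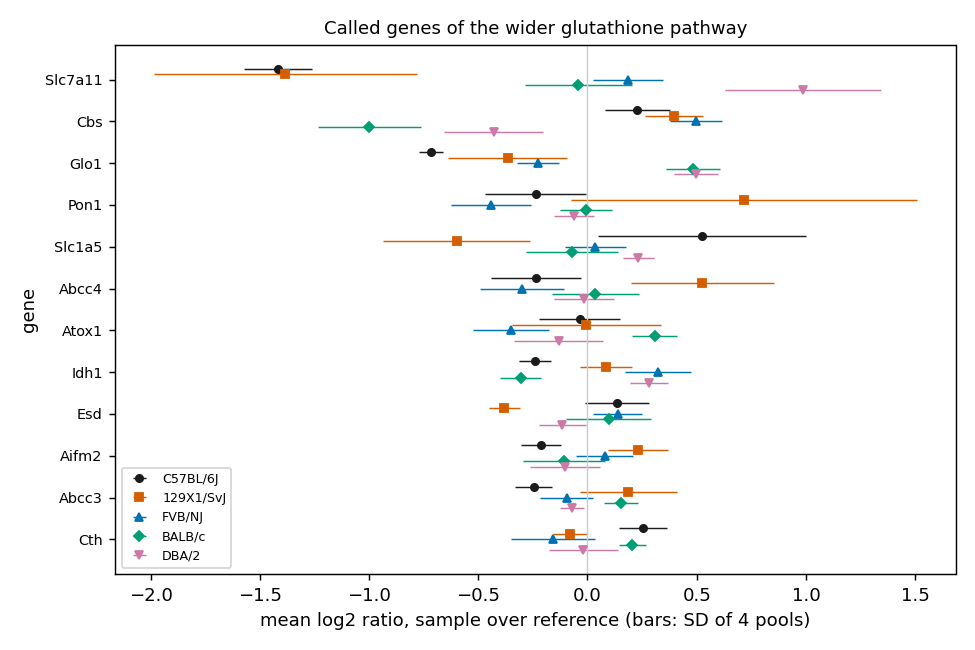
Mean log2 ratio of pool over reference with the SD of 4 pools in each strain, for the 12 called genes of the wider glutathione and oxidant defence list. Slc7a11 spans 2.40 from C57BL/6J to DBA/2, and the strain that is highest changes from gene to gene.

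Ratios to a reference of the same tissue cannot show whether a cell type is present. All 8 measured markers of luminal epithelium had a value on every array, as had those of every other cell type listed. Of markers of other cells, 3 of 8 genes of luminal epithelium, 3 of 6 of fat, 1 of 9 of fibroblasts, both of leukocytes (2 of 2) and the 1 red cell gene measured were called. None was called of 2 basal, 9 smooth muscle and 5 endothelial genes. Hbb-b1, the red cell gene, was highest in FVB/NJ. The part of cell composition in the member differences was not tested.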

How the data were processed

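RNA of 20 prostate pools was compared with a common reference on 2-colour cDNA arrays. The authors scanned the arrays with GenePix, subtracted the median background, and applied a print-tip loess to every array. What they deposited are log2 ratios of pool over reference. Their filter on low abundance needs spot intensities, which were not used here, and the signal over background is therefore unknown. The pools were grouped by the strain in the labels, and 0 columns remained unmapped. Symbols were read from the platform annotation, and all 42 matched the gene table.

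The 11159 elements that lacked no more than 3 values, with 2 or more in every strain, were fitted with limma 3.58.1 in R 4.3.3, with a moderated F test over the 5 strains (adjusted p of at most 0.1) and contrasts of each strain with the mean of the other 4 (adjusted p under 0.05). P values were adjusted over all elements by the method of Benjamini and Hochberg, and limma stood in for the SAM test of the methods. The dye was balanced and not in the model. The fit was tested on simulated data.

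Values of every pool are given for called members that differed by at least 1, and strain means for other called members. From the wider list the called genes are named. A gene with several elements was led by the one with the fewest missing values, then the lowest number, with the others beside it. Of members not called, those nearest the threshold in each role are given. The members and lists were chosen with earlier results of these data known. Alternatives were other limits on missing values, 3 scalings, the dye, the pool number, array weights, elements averaged by gene, other estimates of the spread, arrays of 1 dye, no 129X1/SvJ arrays and each pool left out in turn.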

Additional observations from a re-analysis of the deposited data

Results flagged for a closer look

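Among 80 groups of 4 pools (the 16 called elements in 5 strains), 4 held a pool far from the other 3, and chance gives about 1 in 20 such groups. Gstt1 read -0.246 in C57BL/6J pool 2 against 0.07 to 0.10 in the others. Mgst1 element 3990 read -1.69 in DBA/2 pool 1 against -1.43 to -1.39, still above all pools of BALB/c and C57BL/6J. Prdx3 element 5215 read 0.345 in FVB/NJ pool 2 against -0.27 to -0.18. Mt2 element 8802 read 0.0146 in FVB/NJ pool 2 against -0.31 to -0.28.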

How the results depend on the processing

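Of the 16 called elements, the 3 of Mgst1 and that of Gsto1 kept their call in every alternative (15 for Mgst1 and 14 for Gsto1) and with each of 20 pools left out. Gstk1, Gstt1, Glrx5, Selenop and Prdx3 (5) lost it when a pool was left out and 12 in another alternative, mostly with arrays of 1 dye, where each strain has only 2 pools. No called element reversed. Of 44 elements not called, 12 gained a call in some alternative and 7 with a pool left out. Of these, Gclm, Prdx3 element 6877, Gstt2 element 5652 (adjusted p = 0.0552) and Selenop element 9429 (0.0854) gained it without 129X1/SvJ pool 4, Prdx2 element 2300 without 129X1/SvJ pool 3 (0.0689), Prdx1 element 2553 without BALB/c pool 1 (0.0996) and Gpx4 without BALB/c pool 3 (0.0986). With 1 pool left out the counts of called members ran from 12 to 18 over the strains, 6 to 11 in C57BL/6J, 5 to 8 in 129X1/SvJ, 4 to 6 in DBA/2, 6 to 9 in FVB/NJ and 6 to 8 in BALB/c, and 10 to 14 genes of the wider list.

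The count of members over the 5 strains (16) became 25 with array weights, 8 with Cy3 arrays alone and 4 with Cy5 arrays alone. In C57BL/6J (9) it became 5 with elements averaged by gene, 5 with Cy3 and 4 with Cy5 arrays. In 129X1/SvJ (7) it became 4 with Cy5 arrays. In FVB/NJ (7) it became 13 with array weights, 4 with Cy3 and 3 with Cy5 arrays, and in BALB/c (6) 3 with Cy5 arrays. In DBA/2 (5) it became 8 with arrays scaled to the same spread, 10 with quantile normalization, 10 with array weights, 2 with elements averaged and 2 with Cy3 arrays. The wider list (12) fell to 7 with Cy3 and 3 with Cy5 arrays. Averaging leaves fewer elements and 1 dye fewer arrays, and for the other settings the cause was not tested. Over all elements the 1258 calls became 2803 with array weights, 2228 with dye and pool number in the model, 766 with Cy3 and 297 with Cy5 arrays.

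With the pool number as a replicate block 15 members were called over the strains, with 8 in C57BL/6J, 8 in 129X1/SvJ, 8 in FVB/NJ, 7 in BALB/c and 6 in DBA/2, and 13 genes of the wider list. The labels do not say that a number marks a shared day or batch. Pools of the same number carried the same dye in every strain but 129X1/SvJ, where the dyes were reversed. A block by number therefore also takes up part of the dye differences. Every same-numbered pair across dyes holds a pool of 129X1/SvJ, the strain with the widest spread. Deviations of same-numbered pools correlated from -0.339 to 0.435, with 22 of 40 pairs above 0.1, so not every pair deviated together. Their median was 0.302 within a dye and -0.176 across dyes, beside 0.213 and -0.272 for pools of other numbers, and whether the numbers mark anything shared was not settled.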
